A study of Mus musculus with 6 samples.

Results

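Transglutaminases are calcium-dependent enzymes that join glutamine and lysine side chains of proteins by bonds that proteases do not cut. Of the 8 genes of the family followed here, chosen by name as the mouse genes Tgm1 to Tgm7 and F13a1, 7 had a probe on the array, with 9 probes in all among 41174. Probes were assigned through the RefSeq accession that the scanner files give for each probe. No probe carried an accession of Tgm7, which was therefore not analysed. Of the other 7 genes, 6 passed the filter on dim signals (3 or more of the 6 arrays with a probe well above background) and were tested among 12824 genes; F13a1 did not pass it.

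The samples were epidermis of mice of mixed strain at postnatal day 0, 1 mouse per sample. The 3 AhRCA mice carried a transgene that encodes an always active version of AhR, the aryl hydrocarbon receptor, a transcription factor normally switched on by ligands, driven by the keratin 14 promoter, which is active in basal keratinocytes and in the outer root sheath of the hair follicle. The 3 WT mice were littermates, 1 per AhRCA mouse, and samples with the same replicate number were taken to be a litter pair. Each sample lay on its own 1-colour Agilent array, with pairs 1 and 2 on slide 1 and pair 3 on slide 2.

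In the outer epidermis, transglutaminases build the cornified envelope, the protein shell that replaces the plasma membrane of dying keratinocytes. Tgm1 is anchored to the membrane of keratinocytes and also binds ceramides to envelope proteins, and loss of its human counterpart causes lamellar ichthyosis. Tgm3 is made as a proenzyme that proteases activate and acts in epidermis and in the hair follicle, where trichohyalin is a substrate. Tgm5 works in the upper epidermis, and its loss in humans causes acral peeling skin syndrome. Tgm2, the tissue transglutaminase, is made by many cell types, also binds GTP and crosslinks matrix proteins. Tgm4 is known from the prostate, Tgm6 from neurons, and F13a1 encodes the A subunit of coagulation factor XIII, which crosslinks fibrin and is made by platelet precursors and macrophages.

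Values are log2 spot intensities minus the 75th percentile of their array, called normalized log2 intensity below. Probes differ in brightness for reasons other than transcript number, so each gene was compared between samples and not with other genes. The share of spots well above background was 56.2% to 61.3%, and 0 spots were saturated. The lowest signal well above background lay between -5.23 and -4.77 on this scale, depending on the array. The genotype labels were checked on known AhR target genes, of which 5 of 5 tested rose in AhRCA, from 1.45 for Tiparp to 7.07 for Cyp1a1 on the log2 scale. The tissue label was checked on 8 markers of basal and spinous keratinocytes, which were well above background on every array. Krt5, Krt14, Krt1 and Krt10 ranged from -0.05 to 0.02 on that scale (adjusted p = 0.999 for all 4 by limma with Benjamini-Hochberg adjustment), and Krt15, a keratin of basal and follicle cells, fell (-0.72 ± 0.13 SE, adjusted p = 0.0460). Krt15 lost its call in the fit blocked on litter pairs, called the litter-blocked fit below (adjusted p = 0.0534), and when any array but WT replicate 1 was left out (up to 0.194). It lost it too under quantile normalization (0.0626), with median scaling (0.0838), with no filter on dim probes (0.103) and on slide 1 by itself (0.123).

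Because the genotypes differ in a transcription factor, the promoters of the family were read first for the core letters of the AhR response element, GCGTG, on both strands. RefSeq promoter windows of the GRCm38.p6 assembly, from 250 bases before to 50 after a start site, were matched for 7 of the 8 genes in 10 windows; Tgm2 was the gene without one. The core occurred in 2 of these 10 windows, against 32.4% of 32851 windows of the same length over all genes. The windows that hold it, 1 of 2 of Tgm1 and 1 of 2 of Tgm6, are shown with the core in capitals (written CACGC where it lies on the opposite strand). That of Tgm1 is chr14:55713443-55713742 on the minus strand, with the core starting at base 9 counted from the start site. That of Tgm6 is chr2:130123025-130123324 on the plus strand, with cores on the opposite strand whose first bases lie 133 and 48 bases before the start.
Tgm1: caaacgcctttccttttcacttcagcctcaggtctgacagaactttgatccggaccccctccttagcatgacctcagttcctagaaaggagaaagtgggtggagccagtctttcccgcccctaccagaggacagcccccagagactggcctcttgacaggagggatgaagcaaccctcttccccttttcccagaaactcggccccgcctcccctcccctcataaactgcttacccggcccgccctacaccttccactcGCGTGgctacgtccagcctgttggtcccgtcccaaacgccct
Tgm6: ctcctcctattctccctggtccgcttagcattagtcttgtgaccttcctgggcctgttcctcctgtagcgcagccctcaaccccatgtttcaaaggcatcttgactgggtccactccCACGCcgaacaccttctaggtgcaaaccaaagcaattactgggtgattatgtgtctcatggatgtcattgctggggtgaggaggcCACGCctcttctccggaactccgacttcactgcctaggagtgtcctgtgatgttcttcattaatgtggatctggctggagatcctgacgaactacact
A match is a run of letters and does not show that AhR binds there.

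Setting AhRCA against WT addresses which transglutaminase genes differ when AhR is constantly active in keratinocytes. Tgm2 fell to signals that were not well above background, whereas Tgm1, Tgm3 and Tgm5, the transglutaminases of the cornified envelope, did not pass the test. The Tgm2 probe passed the filter on dim signals through its WT arrays alone. With no such filter Tgm2 did not pass the test (adjusted p = 0.0685, limma, Benjamini-Hochberg). Tgm6 was lower on every AhRCA array than on any WT array and missed the threshold. In all, 0 of 6 tested members rose, 1 fell and 5 did not pass at an adjusted p of 0.05 (limma, Benjamini-Hochberg over all genes), where 2.18% of all tested genes passed in either direction, 0.53% rose and 1.65% fell. The median log2 fold change of the 6 was -0.38, beside 0.00129 over all genes tested. In bulk epidermis, fewer cells of a type and less RNA per cell cannot be told apart.

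**Figure D1:**
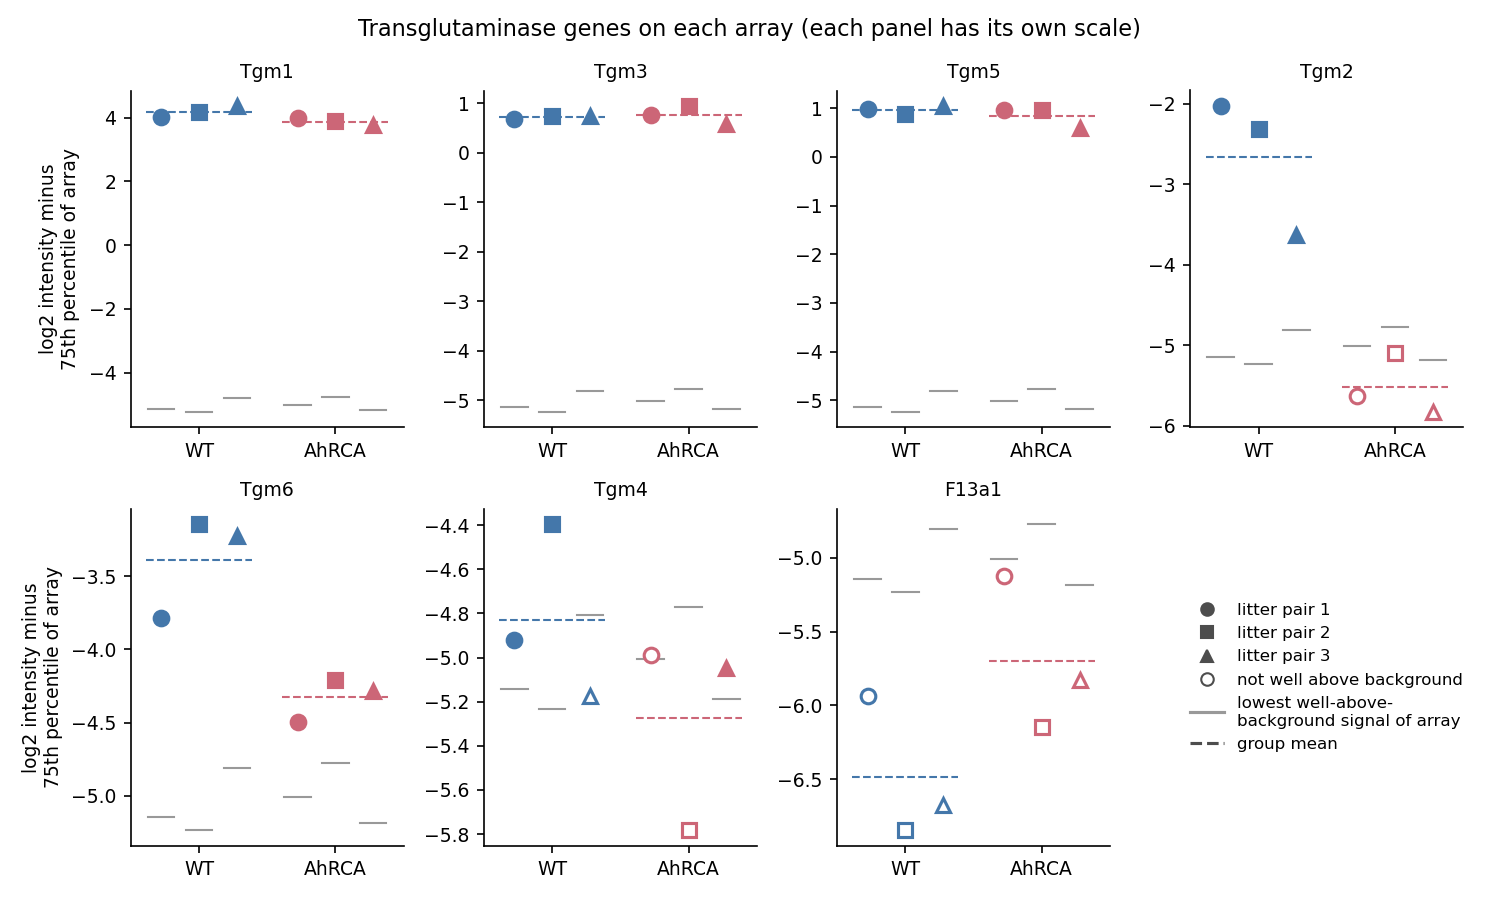
Normalized log2 intensity (vertical axis, own scale per panel) of the tested probe of 6 genes and of the single F13a1 probe on 3 WT (blue) and 3 AhRCA (red) arrays, by litter pair (symbols). Open symbols are not well above background, grey bars are the lowest well-above-background signal of that array and dashed lines are group means. Tgm2 is measured on 3 WT arrays and on 0 AhRCA arrays, Tgm6 is lower on all AhRCA arrays, and Tgm3 and Tgm5 overlap between genotypes.

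Tgm1 had normalized log2 intensities of 4.03, 4.18 and 4.37 in WT replicates 1 to 3 and of 3.98, 3.88 and 3.77 in AhRCA replicates 1 to 3. Every AhRCA array was thus below every WT array, by a narrow margin. The log2 fold change was -0.32 ± 0.13 (SE, n = 3 per group), with group means of 4.19 ± 0.17 (SD) in WT and 3.88 ± 0.11 in AhRCA. It did not pass (adjusted p = 0.397, limma, Benjamini-Hochberg; 95% interval -0.63 to -0.01 without adjustment). The litter pairs differed by -0.05, -0.29 and -0.60, so that the size of the difference depended on the pair. On slide 1 alone it was -0.17 (adjusted p = 0.412).

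Tgm3 stood at 0.69, 0.74 and 0.74 in WT and at 0.75, 0.95 and 0.58 in AhRCA. The AhRCA arrays lay on both sides of the WT arrays, and the WT arrays were close together (SD 0.03) compared with the AhRCA arrays (SD 0.18). The log2 fold change was 0.04 ± 0.12 (SE, adjusted p = 0.999, limma, Benjamini-Hochberg; 95% interval -0.26 to 0.34 without adjustment), with pair differences of 0.07, 0.21 and -0.16. The sign turned to -0.06 without AhRCA replicate 2. As fold changes, that interval runs from 0.835 to 1.26, so the arrays leave room for a change within it. The interval is not the smallest change that could have passed the adjusted threshold.

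Tgm5 stood at 0.98, 0.88 and 1.05 in WT and at 0.96, 0.96 and 0.59 in AhRCA. Pairs 1 and 2 were nearly equal between genotypes, and the low AhRCA value was that of pair 3. The log2 fold change was -0.13 ± 0.14 (SE, adjusted p = 0.943, limma, Benjamini-Hochberg; 95% interval -0.47 to 0.20 without adjustment), with pair differences of -0.02, 0.09 and -0.46. On slide 1 alone the value was 0.03. In Tgm1, Tgm3 and Tgm5 alike, the lowest pair difference was that of pair 3, the pair on slide 2, whose litter cannot be told apart from its slide. Median pair differences of cornified envelope genes (0.14, -0.03 and -0.28) and lipid envelope genes (0.28, -0.04 and -0.34), read below, were also lowest in pair 3. The pattern was not particular to them. Medians of the keratinocyte, endothelium, skeletal muscle, protease, factor XIII partner, Tgm2 partner and retinoic acid lists were lowest in pair 3 too. Those of inner root sheath markers (-1.25, -1.46 and -1.11) were not. Nor were those of the sebaceous gland, macrophage, fibroblast, platelet, peptidylarginine deiminase and AhR target lists. Probes of Xist, which is transcribed from the inactive X chromosome, also set this pair apart: 4 were well above background on each array of pairs 1 and 2, against 1 on the WT and 0 on the AhRCA array of pair 3. This Xist difference can reflect the sex of the mice. Litter, slide and sex cannot be told apart in pair 3, and their part in the pair differences was not tested.

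**Figure D2:**
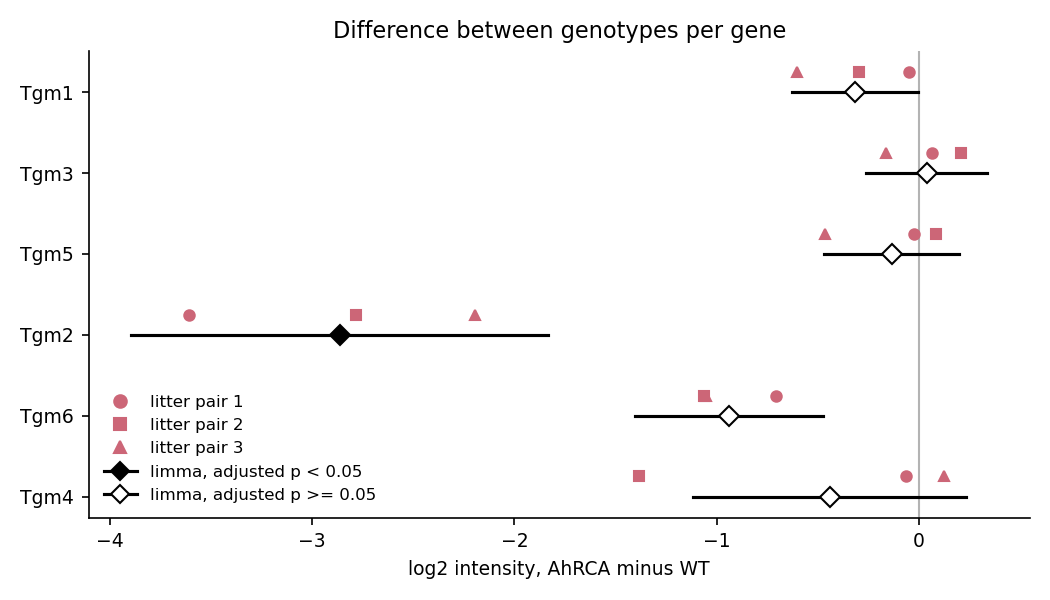
Difference in normalized log2 intensity, AhRCA minus WT (horizontal axis), for the 6 tested genes. Diamonds with lines are the limma estimate and its 95% interval, filled where the adjusted p is under 0.05, and small red symbols are the 3 litter pairs. Tgm2 lies farthest from 0, all 3 pairs of Tgm1, Tgm2 and Tgm6 are below 0, and the intervals of Tgm3, Tgm4 and Tgm5 include 0.

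Tgm2 was read by 3 probes, of which 1 was measurable. On that probe, A_52_P220879, the processed intensities were 179, 135 and 57.5 in WT and 13.8, 18.3 and 13.3 in AhRCA. As normalized log2 intensities these were -2.02, -2.32 and -3.63 in WT and -5.63, -5.10 and -5.83 in AhRCA. All 3 WT arrays were well above background, WT replicate 3 being the dimmest, and 0 of 3 AhRCA arrays were. Tgm2 fell (adjusted p = 0.0282, limma, Benjamini-Hochberg, n = 3 per group), and its mean was at least 5.03-fold lower in AhRCA. This bound sets the WT mean against the lowest well-above-background signal of each AhRCA array, or the probe's own signal where higher. It was not tested and takes no account of the spread of the WT arrays. The fitted log2 fold change was -2.86 ± 0.43 (SE, 95% interval -3.89 to -1.83 without adjustment). That fit, between means of -2.66 ± 0.86 (SD) in WT and -5.52 ± 0.38 in AhRCA, uses AhRCA signals that lie below background. The pair differences were -3.61, -2.78 and -2.19, all 3 in one direction.

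Tgm2 kept its call in the litter-blocked fit (adjusted p = 0.0184). It did so too when the slide was one (0.0108, in a fit where 4.2% of all genes passed) and on slide 1 by itself (0.038, where 1.01% did). When WT replicate 3 was left out the call held (0.0120), and when any other array was left out it was lost (adjusted p from 0.0611 to 0.108 by limma). It was lost with no filter on dim probes (0.0685) and under quantile normalization (0.0553). The probe had passed that filter through its 3 WT arrays alone. With normexp background correction, whose offset pulls dim signals together, the log2 fold change was -1.09 (adjusted p = 0.0651). Tested over the 24005 kept probes instead of genes, where 1.1% passed, the probe had an adjusted p of 0.0451.

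The other Tgm2 probes, A_51_P182796 and A_51_P182794, were well above background on 0 of the 6 arrays. Their processed intensities ran from 4.67 to 9.27 and from 4.78 to 19.5. They give no fold change, and they do not repeat the WT signal of the brighter probe. The part of the transcript that each probe reads was not used here, so the fall of Tgm2 rests on 1 probe.

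**Figure D3:**
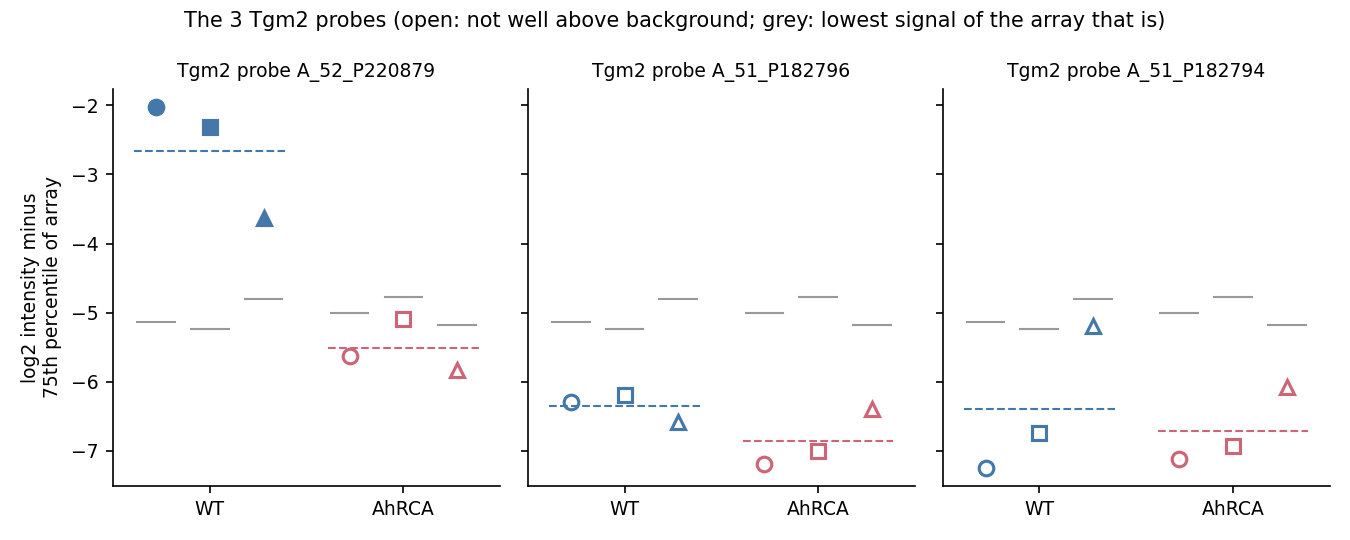
Normalized log2 intensity (shared vertical axis) of the 3 Tgm2 probes on 3 WT (blue) and 3 AhRCA (red) arrays, with symbols, grey bars and dashed lines for litter pairs, the lowest well-above-background signal of the array and group means. The WT arrays of the first probe lie between -3.63 and -2.02, above background, while all other points are not well above background.

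Tgm6 stood at -3.79, -3.15 and -3.23 in WT and at -4.49, -4.21 and -4.28 in AhRCA, well above background on all 6 arrays. The AhRCA arrays were all below the WT arrays, and the pair differences were -0.71, -1.06 and -1.05. The log2 fold change was -0.94 ± 0.19 (SE, n = 3 per group), a 1.92-fold lower mean in AhRCA, with group means of -3.39 ± 0.35 (SD) and -4.33 ± 0.15. By limma with Benjamini-Hochberg adjustment its adjusted p was 0.0719, above the threshold. In the litter-blocked fit it passed (adjusted p = 0.0266), in a fit where 3.88% of all genes passed and 2 of the 6 members, Tgm2 and Tgm6, did. It also passed without WT replicate 1 (adjusted p = 0.0323, log2 fold change -1.14), where 1.52% of all genes did. When the slide was the block its adjusted p was 0.0673, and with normexp background correction the log2 fold change was -0.34 (adjusted p = 0.252). Its signals, 30.3 to 76.2 in processed intensity, were near the dim end of the array.

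Tgm4 was near background throughout. Its normalized log2 intensities were -4.92, -4.40 and -5.17 in WT and -4.99, -5.78 and -5.05 in AhRCA, and WT replicates 1 and 2 and AhRCA replicate 3 were well above background. The groups overlapped, and the log2 fold change of -0.44 ± 0.28 (SE) did not pass (adjusted p = 0.736, limma, Benjamini-Hochberg), with -1.39 in pair 2 and -0.07 and 0.13 in the others.

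F13a1 was well above background on 0 of 6 arrays. Its single probe read -5.94, -6.85 and -6.67 in WT and -5.12, -6.14 and -5.83 in AhRCA. The AhRCA signal was the higher one in all 3 pairs, but both groups lay below background, so no fold change is given. Epb42, a relative that has lost the catalytic activity and is known from the red cell membrane, had 2 probes, and neither was well above background on any array.

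Across the 6 tested genes, 3 (Tgm1, Tgm2 and Tgm6) had genotypes that did not overlap, where 16.4% of all tested genes did not overlap, and the same 3 were lower in AhRCA in every litter pair, where 20.1% of all genes were. In gene order on chromosome 2, Tgm5 lies next to Tgm7 and Epb42, and Tgm3 and Tgm6 are separated by AU015228; Tgm3 had a log2 fold change of 0.04 and Tgm6 one of -0.94.

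**Figure D4:**
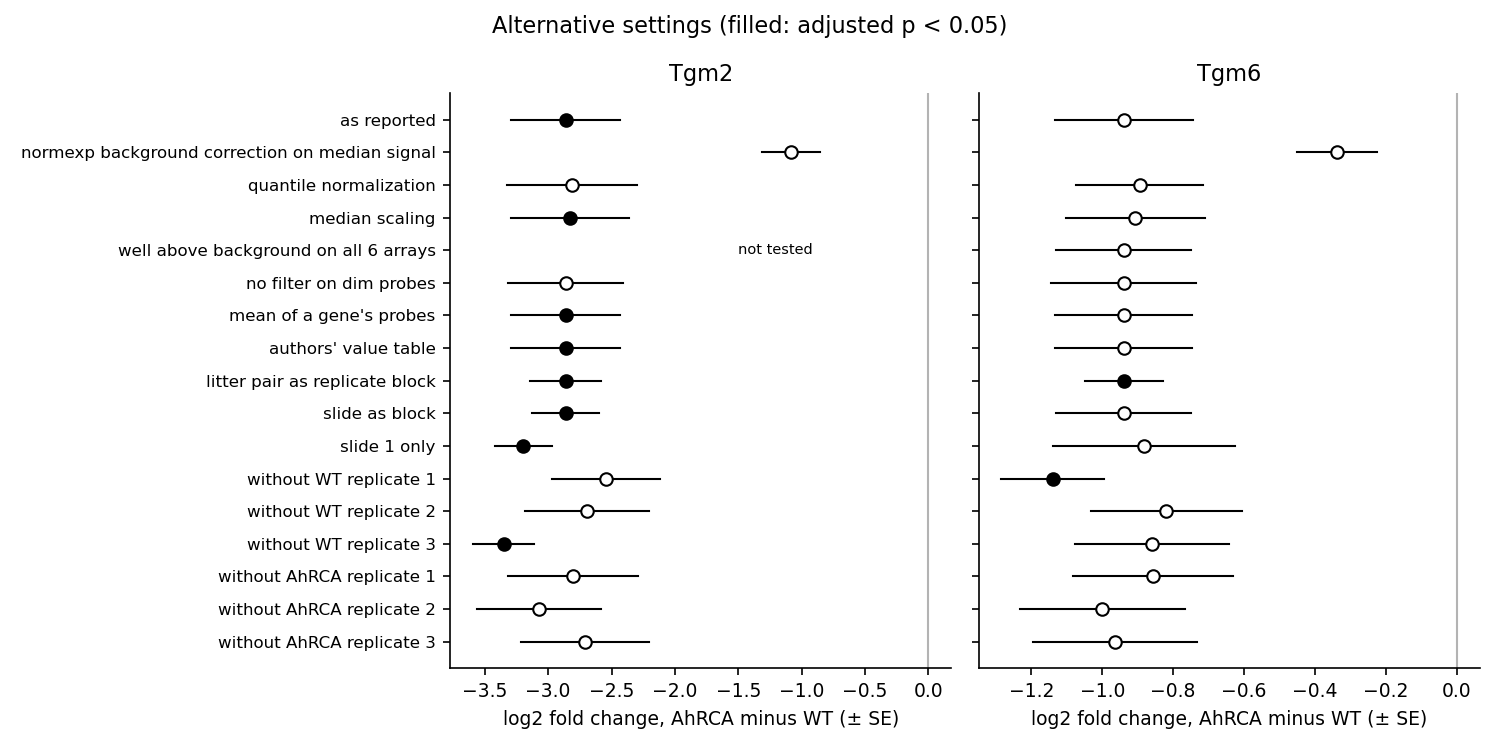
Log2 fold change, AhRCA minus WT, with its SE (horizontal axes, own scale per panel) of Tgm2 and Tgm6 as reported and under each other setting of the processing (vertical axis). Filled points passed an adjusted p of 0.05. Values of Tgm2 run from -3.35 to -1.09 and those of Tgm6 from -1.14 to -0.34, and all are below 0.

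Among the proteins that transglutaminases join at the cornified envelope, 1 of 34 tested genes fell and 0 rose, where 1.65% of all tested genes fell. The median log2 fold change of the 34 was -0.06. An unadjusted p under 0.05 (limma) was found for 6, all of them lower in AhRCA, where 12.2% of all tested genes had one. Genotypes did not overlap for 6, against 16.4% of all genes. Sprr4, a small proline-rich protein, fell (-1.35 ± 0.19 SE, adjusted p = 0.0224, limma, Benjamini-Hochberg). In the litter-blocked fit Tchh, trichohyalin, passed too. Ivl, involucrin, and Lor, loricrin, main substrates of Tgm1 and Tgm3 named for that role after their values were seen, had -0.08 ± 0.18 and 0.05 ± 0.10. Sprr and Lce genes have close copies whose transcripts can bind one probe. Sprr4 lost its call on slide 1 by itself (adjusted p = 0.083), with no filter on dim probes (0.0582) and when any array but WT replicate 1 was left out (up to 0.101).

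Of 12 tested genes of the lipid envelope, whose ceramides Tgm1 binds to protein, 0 passed and 0 had an unadjusted p under 0.05 (limma), where 12.2% of all tested genes did. The largest differences were 0.18 ± 0.13 for Cyp4f39, an omega-hydroxylase of very long chain fatty acids, and -0.19 ± 0.14 for Smpd1, acid sphingomyelinase, and the median was -0.03. Of 10 tested proteases and inhibitors that act on transglutaminases, 0 passed and 2 had an unadjusted p under 0.05 (limma), with a median of -0.10. The largest values were -0.80 ± 0.25 for F2, prothrombin, and -0.43 ± 0.20 for Cst6, an inhibitor of the cathepsins that activate Tgm3.

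Peptidylarginine deiminases turn arginine of envelope and hair proteins, such as trichohyalin, into citrulline beside the action of transglutaminases. Of 4 tested members 1 fell and 0 rose, where 1.65% of all genes fell. All 4 had negative fold changes and genotypes that did not overlap, where 16.4% of all genes did not, with a median of -1.19. Padi2 (-0.94 ± 0.20) was well above background on 1 of 3 AhRCA arrays. Padi4 fell (-1.43 ± 0.17 SE, adjusted p = 0.0140, limma, Benjamini-Hochberg), from 0.97, 1.60 and 1.27 in WT to -0.12, -0.25 and -0.09 in AhRCA. Padi3, which acts with Tgm3 on hair proteins, had -1.47 ± 0.31 (adjusted p = 0.0780) and passed in the litter-blocked fit (0.0144). Padi4 lost its call without AhRCA replicate 1 (adjusted p = 0.0578) or AhRCA replicate 2 (0.0767) and on slide 1 alone (0.0904).

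Tgm3 has its substrate trichohyalin in the inner root sheath and hair shaft. Of 7 tested markers of these layers, 0 passed. An unadjusted p under 0.05 (limma) was found for 6, against 12.2% of all genes, and genotypes did not overlap for 6, against 16.4% of all genes; the median was -1.24. Gata3, a transcription factor of the inner root sheath, was the exception with 0.19 ± 0.13. In the litter-blocked fit 6 of 7 fell (adjusted p between 0.0117 and 0.0378), among 2.81% of all genes that fell in that fit. Tchh stood at 5.12, 6.11 and 6.02 in WT and at 4.21, 4.65 and 4.87 in AhRCA, with a log2 fold change of -1.17 ± 0.30. The largest were those of S100a3, a calcium-binding protein of the hair cuticle (-1.49 ± 0.34), and Padi3. The summed signal of the 7 markers, in multiples of each array's 75th percentile, was between 218 and 423 in WT and between 103 and 168 in AhRCA. Tgm3 had 0.04 in the same comparison; the difference between Tgm3 and these genes was not tested.

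For Tgm2, which many cell types make, the markers of other cells are given beside its fall. Of 10 endothelial markers 6, among them Pecam1, Cdh5 and Kdr, were well above background on 0 arrays. Of the 3 tested 0 passed and 0 had an unadjusted p under 0.05 (limma), where 12.2% of all tested genes had one. Eng had -0.50 ± 0.21 and Egfl7 0.11 ± 0.24. The summed signal of the list, most of it from the Egfl7 probe, was between 0.866 and 1.13 in WT and between 0.810 and 1.13 in AhRCA. Of 7 tested fibroblast markers 0 passed and 2 had an unadjusted p under 0.05 (limma); Col1a2, a chain of type I collagen, had -1.19 ± 0.23 (adjusted p = 0.0622), and Postn, periostin, the other of these and named after its value was seen, had 0.47 ± 0.12 (0.143). Col3a1, a chain of type III collagen, had 0.85 ± 0.68 (adjusted p = 0.854). Their summed signal was between 35.5 and 44.1 in WT and between 40.8 and 44.4 in AhRCA, and Pdgfra stayed below background throughout. The probes of Dcn and Postn, with WT means of 4.34 and 3.73 beside 0.36 for Col1a2, made up most of that sum. A change of the dimmer markers hardly shows in it. Of 7 tested markers of the sebaceous gland 5 fell and 0 rose, where 1.65% of all tested genes fell, and the median was -1.37. The falls were led by Soat1, which esterifies cholesterol (-2.34 ± 0.16), and Cidea, a lipid droplet protein (-2.19 ± 0.19). Pparg, a regulator of sebocyte differentiation, had -1.85 ± 0.20 and Scd1, a desaturase, -1.37 ± 0.17. The summed signal of 8 sebaceous markers was between 195 and 237 in WT and between 185 and 208 in AhRCA, and Mc5r stayed below background throughout. Most of this sum came from the probes of Dgat2 and Fasn, enzymes of lipid synthesis that did not pass (-0.0046 ± 0.13 and -0.07 ± 0.11). Split after the values were seen, the 5 markers that fell summed to between 20.7 and 27.5 in WT and between 7.07 and 7.91 in AhRCA. The part of sebaceous gland, endothelium and fibroblasts in the fall of Tgm2 was not tested. Scd1 lost its call on slide 1 by itself (0.0913) and when WT replicate 2 or either of AhRCA replicates 1 and 3 was left out (adjusted p up to 0.0638), and Pparg lost its call when replicate 2 of either genotype was left out (adjusted p up to 0.061).

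Of 14 tested genes for proteins that bind Tgm2 or are joined by it 0 passed. An unadjusted p under 0.05 (limma) was found for 4, where 12.2% of all tested genes had one, and the median was -0.15. The largest values were -1.55 ± 0.58 for Itgb3, the integrin beta 3 chain, which was well above background on 2 of 3 WT and 1 of 3 AhRCA arrays, and -1.15 ± 0.23 for Mfge8, an integrin ligand (adjusted p = 0.0677). Mfge8 passed in the litter-blocked fit (adjusted p = 0.0142). Tgm2 is also a known target gene of retinoic acid. Of 11 tested genes of retinoic acid response and synthesis 1 fell and 0 rose, where 1.65% of all tested genes fell, and the median was -0.12. An unadjusted p under 0.05 (limma) was found for 3, all lower in AhRCA, beside 12.2% of all tested genes. Positive values were found for 2 of the 11. Aldh1a3, which makes retinoic acid, fell (-1.23 ± 0.21 SE, adjusted p = 0.0402, limma, Benjamini-Hochberg), and Cyp26a1 was not well above background on any array. Aldh1a3 lost its call when any 1 array was left out (adjusted p up to 0.154), with median scaling (0.0562), with no filter on dim probes (0.0922) and on slide 1 by itself (0.0904).

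For F13a1, macrophage and platelet markers and its partners in clotting were read. Of 8 tested macrophage markers 2 rose and 0 fell, where 0.53% of all tested genes rose. All 8 had positive values, as did 6463 of all 12824 tested genes, and the median was 0.66. In the litter-blocked fit, where 3.88% of all genes passed in either direction, 3 rose. The added one was C1qc (0.91 ± 0.23 and adjusted p = 0.134 by limma without the block, 0.0153 with it). The genes that rose were Adgre1, a surface receptor of macrophages (0.67 ± 0.10 SE, adjusted p = 0.0321, limma, Benjamini-Hochberg), and C1qa, a complement subunit (0.86 ± 0.15, adjusted p = 0.0480). Both lost their calls when any 1 array was left out (adjusted p up to 0.16 and 0.169), with median scaling (0.0702 and 0.0718), with no filter on dim probes (0.0781 and 0.105) and on slide 1 by itself (0.0901 and 0.155). The summed signal of 11 macrophage markers was between 4.75 and 5.16 in WT and between 6.75 and 8.29 in AhRCA, and Cd163, Lyve1 and Folr2, markers of resident dermal macrophages, were well above background on 0 arrays. Of 2 tested platelet markers 0 passed and 1 had an unadjusted p under 0.05 (limma), where 12.2% of all tested genes had one. Itga2b had -0.60 ± 0.12 and Pf4 0.15 ± 0.38. Of 7 tested partners and substrates of factor XIII 0 passed and 3 had an unadjusted p under 0.05 (limma), beside that 12.2% of all genes. Their median was 0.02. The B subunit gene F13b and the fibrinogen genes Fga, Fgb and Fgg were not well above background on any array. The largest values were those of Thbs1, thrombospondin 1 (0.97 ± 0.32), and Plau, urokinase (0.73 ± 0.14, adjusted p = 0.0653), which passed in the litter-blocked fit (0.0328). Of 2 tested skeletal muscle markers 0 passed and 1 had an unadjusted p under 0.05 (limma), with -1.23 ± 0.32 for Myh8 and -0.08 ± 0.35 for Acta1. Myh8 fell in the litter-blocked fit (adjusted p = 0.0444).

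**Figure D5:**
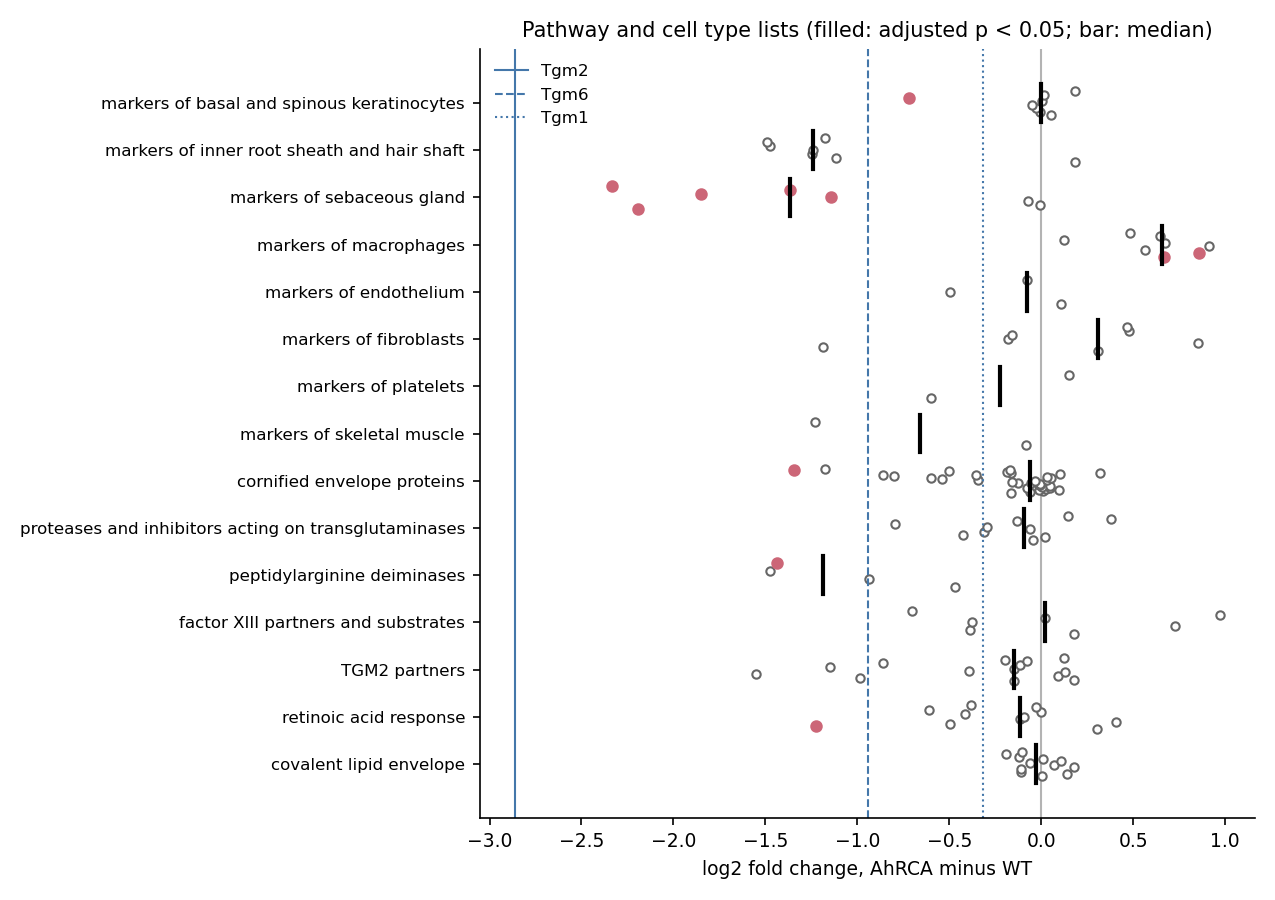
Log2 fold changes, AhRCA minus WT (horizontal axis), of the tested genes of each list (rows), filled where the adjusted p is under 0.05, with black bars for medians. Blue vertical lines mark Tgm2 at -2.86, Tgm6 at -0.94 and Tgm1 at -0.32. The medians of cornified envelope, lipid envelope and keratinocyte genes lie near 0, and those of inner root sheath, sebaceous gland and peptidylarginine deiminase genes below -1.

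The genes whose values on the 6 arrays, centred on their own mean, came closest to those of Tgm2 were Krt20, Col9a3, Cd207, Soat1 and Sardh, among 12820 searched. Their root mean square difference from Tgm2 was between 0.366 and 0.507 on the log2 scale. Krt20, a keratin of Merkel cells, stood at -1.17, -1.41 and -1.92 in WT and at -3.83, -3.96 and -4.54 in AhRCA. Among the WT arrays Tgm2 and all of Krt20, Col9a3, Cd207, Soat1 and Sardh were lowest in replicate 3. The search used these same arrays, so this shared low was partly set by the choice of genes and is no separate likeness. The AhRCA values of Tgm2 were below background and have no order, though the search used them. Cd207, langerin of Langerhans cells, shared with Tgm2 that it was well above background on 3 WT and 0 AhRCA arrays. Such a loss of signal was not particular to them: of the 211 genes that fell, 36 had a tested probe that reached this level on 0 AhRCA arrays. Col9a3, a chain of type IX collagen, Soat1 and Sardh, sarcosine dehydrogenase, had log2 fold changes of -2.44, -2.34 and -2.20. With 3 arrays per genotype this likeness mostly reflects the difference between genotypes.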

How the data were processed

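Gene expression was measured on 6 Agilent 1-colour arrays, 3 WT and 3 AhRCA. Per the labels' protocols, an RNeasy Micro kit gave the total RNA, and Quick Amp labelling added Cy3. Per the file headers, the authors' scanner files hold spot intensities from Feature Extraction 10.7.3.1, with local background subtracted on each array and no scaling between arrays. A table of log2 values that the authors deposited was set against these files: differences between its columns equalled those of the log2 processed intensity with a slope of 1, so its direction and scale are those used here, each probe is centred on a median of 0 over the arrays, and its column medians lay between -0.0710 and 0.0827.

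The 75th percentile of the array (controls excluded) was subtracted from each log2 processed intensity; control spots and 56 to 94 outlier spots per array were left out, and spots of a probe averaged. Probes were named through unversioned RefSeq accessions (26690 of 41174 matched 1 symbol) and not through coordinates, since the builds differ. Coordinates of genes served only for the gene order, and those of promoter windows are as given. Probes well above background on at least 3 arrays were kept (24005), and the brightest stood for its gene. Genotypes were compared with limma 3.58.1 in R 4.3.3 (two-sided, Benjamini-Hochberg, threshold 0.05), checked on simulated data. Members and gene lists were chosen with earlier results of these data known. Named were the family and Epb42, up to 4 called genes of each list or else the 2 with the largest change, and the 5 profiles nearest to Tgm2. The number of arrays limits the precision.

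Each sampling took 1 AhRCA mouse and a WT littermate, per the labels. Deviations from the group means across 12821 genes correlated at 0.337, 0.372 and 0.55 between same-numbered arrays, so the numbers were taken to pair the samples, and the fit with the litter pair as a block is given where it changes a call. Alternatives were normexp background correction (on the median spot signal, since the planned mean signal was not used here), quantile and median scaling, other probe filters, the mean of a gene's probes, the authors' table, slide as a block, slide 1 alone and each array left out.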

Additional observations from a re-analysis of the deposited data

How the results depend on the processing

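The count of genes that passed was 279. It was 132 with no filter on dim probes (18217 genes tested), 497 with the litter pair as a replicate block, 539 with the slide as a block, 130 on slide 1 alone, and between 62 and 195 when any 1 array was left out. Of the transglutaminases 1 passed. With normexp background correction, under quantile normalization (Tgm2 adjusted p = 0.0553), with no filter on dim probes (0.0685), and when all 6 arrays had to be well above background, so that Tgm2 was not tested, 0 passed; with the replicate block 2 passed, and between 0 and 1 when any 1 array was left out. Tgm2 and Tgm6 kept their direction wherever they were tested, whereas Tgm3 turned to -0.055 without AhRCA replicate 2 (up to 0.13 without any other array) and Tgm5 to 0.031 on slide 1 alone. Also turned were Egfl7 (-0.092 to 0.29 when any 1 array was left out, lowest without WT replicate 3), Pf4 (-0.21 to 0.40, below 0 without WT replicate 1, at -0.11, and AhRCA replicate 1) and Acta1 (-0.29 to 0.32, above 0 without WT replicate 2, at 0.084, and AhRCA replicate 3; 0.022 with normexp and 0.21 on slide 1 alone). Medians of cell type marker lists that moved by more than their spread over litter pairs, under 1 or more settings, were those of sebaceous gland, skeletal muscle, inner root sheath, endothelium, fibroblasts and macrophages. Of the other lists they were those of the peptidylarginine deiminases (-0.89 with normexp, -1.43 with probes measured on all 6 arrays, -1.26 to -0.99 without any 1 array), Tgm2 partners (-0.12 with normexp and with median scaling, -0.18 on slide 1 alone, -0.22 to -0.11 without any 1 array), factor XIII partners (-0.085 to 0.20 without any 1 array) and AhR targets (4.30 with normexp, 3.74 with probes measured on all 6 arrays). The cause was not tested, other than that a stricter or looser filter changes the genes tested. Signals near background limit what Tgm2, Tgm4, Tgm6 and F13a1 can show.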
